A study of Zea mays with 15 samples.

Results

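The comparison was between maize leaves under solar UV-B and leaves under a filter that removed most of it, in zone 3 of the growth zone, the segment 2 to 3 cm from the leaf base. It used 5 of the 15 libraries of the series: control replicates 1, 2 and 3 and UV-B replicates 2 and 3. They were chosen by their labels and by depth, since UV-B replicate 1 of zone 3 held reads of only 547 genes and was left out. All plants were of the inbred line B73 and grew outdoors under plastic sheets. Per the labels, mean noon UV-B was 0.35 W/m2 under the control sheet and 1.5 W/m2 under the other (UV-A was 8 W/m2 for each), so the controls still received some UV-B. RNA came from leaf 4, taken 3 days after it emerged, and messenger RNA was sequenced. The labels call the replicates biological, but do not say whether they came from separate plants or how many leaves were pooled. The p-values therefore measure the spread between these libraries, and how much of it lies between plants is not known.

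Sunlight UV-B is sensed in plants by the photoreceptor UVR8, which acts through the COP1 ubiquitin ligase and the transcription factor HY5. Known outputs in leaves are flavonoid sunscreens, photolyases that repair UV-made DNA lesions, and slower leaf growth. A grass leaf grows from its base: cells divide near the base, then elongate, and then differentiate, so zone 3 lies above most of the dividing cells.

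The markers of the segment went with its label. Levels are given as CPM, reads per 1000000 reads of the library. The CPM of 8 mesophyll and bundle sheath markers summed to 633 to 1010 in controls, and to 845 in UV-B replicate 2 and 1000 in replicate 3, against a mean of 47.4 in control zone 1. Those of 7 markers of the dividing leaf base were 55.7 to 58.3 in controls and 58.1 and 47.8 under UV-B, against 381 in control zone 1. Meristem and ligule markers summed to at most 1.95 CPM in controls and 3.59 under UV-B, with kn1 at 0 in every zone 3 library. In bulk RNA, fewer cells of a type and less RNA per cell cannot be told apart.

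The 5 libraries did not group by treatment. Depth was 2007679, 5135041 and 6222019 reads in the controls (replicates 1, 2, 3) and 4665312 and 1673416 under UV-B (replicates 2, 3), the order in which all values by library are given. Over 13219 genes with a mean of at least 10 CPM, the root mean square log2 difference was 0.39 between UV-B replicate 2 and control replicate 2, as small as between control replicates 2 and 3. It was 0.89 between the UV-B replicates, above every other pair of the 5. Control replicate 1 stood 0.63 to 0.66 from all 4 others. Each result below is therefore given by library.

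**Figure D1:**
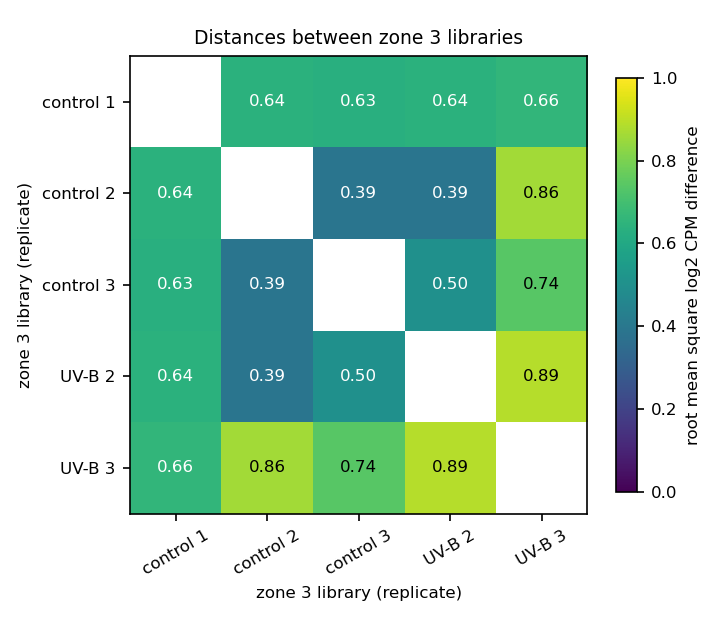
Root mean square difference in log2 CPM between each pair of the 5 zone 3 libraries over 13219 genes, by colour and by the printed number; the diagonal is blank. The largest difference, 0.89, is between the UV-B replicates, and UV-B replicate 2 lies 0.39 from control replicate 2.

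With 23899 genes tested by edgeR's quasi-likelihood test, 1 gene passed an adjusted p of 0.05 (0.00418% of the genes tested) and it fell under UV-B. GRMZM2G169927 (chromosome 4, 240039042 to 240048763) has no name in the annotation used and lies in a chromosome 4 window with many genes of low p, described last. It had 18.9, 30.8 and 25.4 CPM in the controls and 4.29 and 2.99 CPM under UV-B. Both UV-B libraries lay below all 3 controls, with 20 and 5 reads against 38, 158 and 158. The mean went from 25.0 ± 5.93 CPM (SD, n = 3) to 3.64 ± 0.919 (n = 2), a log2 fold change of -2.75 ± 0.33 (SE) with an adjusted p of 0.0487. Most of its reads were also unique to 1 transcript, 26, 114 and 127 in controls and 17 and 4 under UV-B. The call was at the edge of the threshold: without control replicate 2 or 3 the adjusted p was 0.194 and 0.231, and without UV-B replicate 2 or 3 it was 0.278 and 0.562, at log2 changes from -3.21 to -2.51.

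In the adjacent zone 2, GRMZM2G169927 had 40.6 ± 3.52 CPM (SD, n = 2) in controls and 16.0 ± 3.98 (n = 3) under UV-B, again with no overlap between the groups, as for 8.43% of all genes with UV-B higher and 4.59% with UV-B lower in that zone. The log2 fold change there was -1.37 ± 0.25 with an unadjusted p of 0.000116 and an adjusted p of 0.924. The zone 3 log2 change minus the zone 2 log2 change was -1.38 ± 0.41 (unadjusted p = 0.00583, adjusted p = 1.0), so the zones were not shown to differ.

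Below the threshold, 434 genes were higher and 430 lower under UV-B at an unadjusted p under 0.05, which is 1.82% and 1.8% of the genes tested and 3.62% together. Without UV-B replicate 2 the share together was 11.4%, with UV-B replicate 3 as the lone UV-B library, assumed to vary like the other groups. The UV-B libraries lay above all controls for 1809 genes (7.57%) and below all controls for 1852 (7.75%). The median log2 fold change of all genes tested was -0.03. DESeq2 called 4 genes: GRMZM2G169927 and 3 higher genes, GRMZM2G036640, GRMZM2G445139 and GRMZM2G039373. Limma-voom called 0, with 451 genes at an unadjusted p under 0.05 and adjusted p of 0.56 to 1 for these 4 genes. The values that follow did not pass the edgeR adjustment and are given as levels and unadjusted p.

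The 3 higher genes lie on chromosome 1. With GRMZM5G877929, they have the 4 smallest adjusted p in a model over the 3 zones together. The zone 2 libraries and these zone 3 libraries contribute to that model. GRMZM2G036640 (chromosome 1, 264587455 to 264589878) had 20.4, 14.4 and 16.2 CPM in the controls and 43.9 and 49.6 under UV-B. Its log2 fold change was 1.42 ± 0.20 (edgeR adjusted p = 0.161, and 1.8e-05 by DESeq2). Nearly all of its reads are shared by transcripts, with 205 total and 2 unique reads in UV-B replicate 2. GRMZM2G039373 (chromosome 1, 258499166 to 258506168) had 32.4, 26.5 and 26 CPM in controls and 54.4 and 58.6 under UV-B, a log2 fold change of 0.95 ± 0.18 (edgeR adjusted p = 0.78). GRMZM2G445139 (chromosome 1, 253459348 to 253464451) was nearly off in controls, with 0, 1 and 1 reads, and had 28 and 9 reads under UV-B, or 6.0 and 5.38 CPM. GRMZM5G877929 (chromosome 1, 274578972 to 274579305) had 20.9, 10.7 and 6.75 CPM in controls and 33.2 and 59.8 under UV-B. In all 4 genes both UV-B libraries lay above all controls in zone 3, and the zone 2 groups did not overlap either. The model that chose them holds both zones, so this adds no separate support. Over all genes, UV-B lay above all controls for 7.57% in zone 3 and 8.43% in zone 2.

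**Figure D2:**
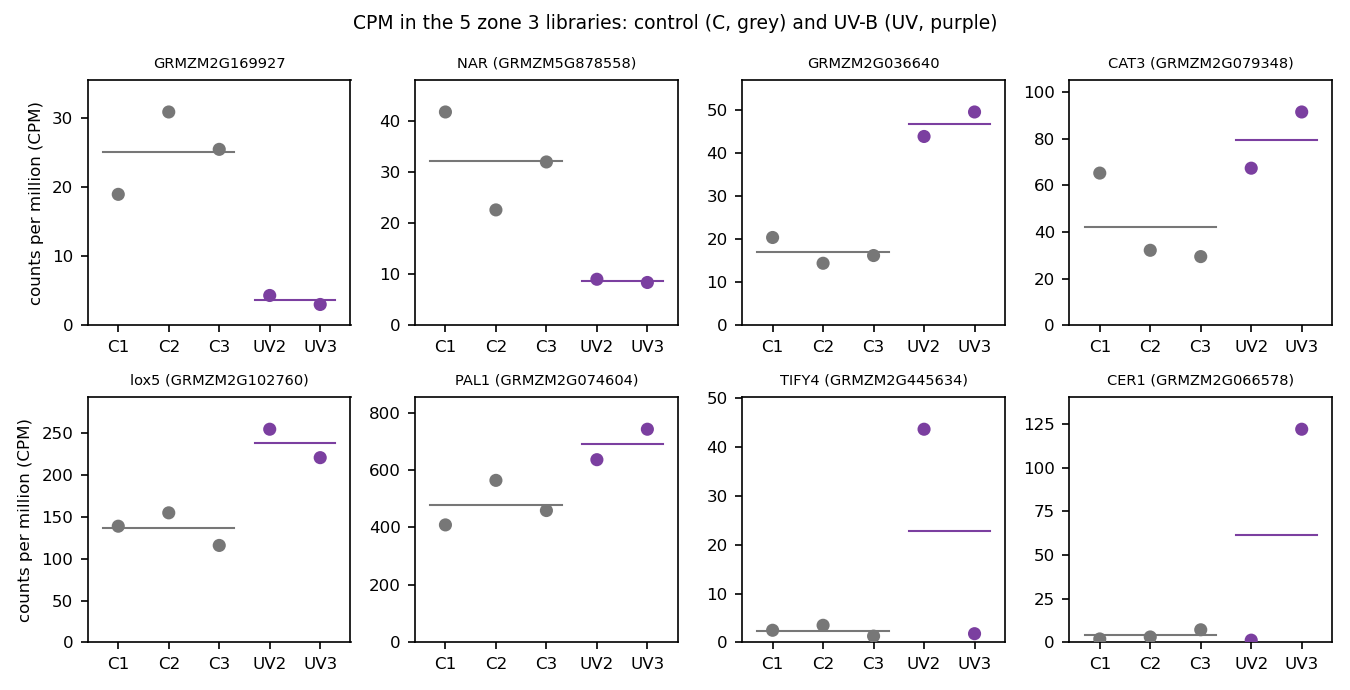
CPM (linear axes from 0) of 8 genes in control replicates 1 to 3 (C, grey) and UV-B replicates 2 and 3 (UV, purple) of zone 3; points are libraries and lines are group means. In the first 6 panels both UV-B libraries lie beyond all controls, while TIFY4 was high only in UV-B replicate 2 (43.7 CPM) and CER1 (GRMZM2G066578) only in UV-B replicate 3 (122 CPM).

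Genes with a name were ranked if they had no overlap and a mean of at least 10 CPM in the higher group. Names that are bare marker or sequence labels were left out. Among the genes ranked, NAR (GRMZM5G878558), a nitrate reductase gene of the first step of nitrate assimilation, had the smallest unadjusted p. It had 41.8, 22.6 and 32.0 CPM in controls and 9.0 and 8.37 under UV-B. Both UV-B libraries were nearly equal and below every control (log2 fold change -1.89 ± 0.40, unadjusted p = 0.000472, adjusted p = 1.0). In zone 2 it had 37.6 ± 3.89 CPM (SD, n = 2) in controls and 20.8 ± 7.34 (n = 3) under UV-B, also without overlap (log2 fold change -0.83, unadjusted p = 0.0291). Of the 11 nitrogen genes tested, NAR was the 1 past an unadjusted p of 0.05, against 3.62% of all genes. The list's median was -0.06. The glutamine synthetase genes gs1-2 and gs1-4, which incorporate ammonium, were high in UV-B replicate 3 alone, gs1-2 with 26.3 CPM against 3.49 to 7.07 in the other 4 libraries.

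Among the other lower named genes without overlap and with a control mean of at least 10 CPM, those with the smallest p had smaller differences than NAR. The origin recognition gene orc3, which marks sites where DNA replication starts, had 8.97, 14 and 9.16 CPM in controls and 6.64 and 6.57 under UV-B. The transglutaminase gene tgase had 18.9, 10.9 and 15.3 CPM in controls and 8.36 and 8.37 under UV-B. sbp25, of the SBP-box transcription factor family, had 40.3, 46.7 and 51.1 CPM against 30.2 and 31.7. These genes were lower in both UV-B libraries by a similar amount, with log2 fold changes of -0.75 ± 0.29 for orc3, -0.86 ± 0.30 for tgase and -0.63 ± 0.22 for sbp25. The phospholipase C gene PLC, the phosphatase gene PP2C23 and SEC14p had log2 fold changes of -0.82, -0.66 and -0.57, with unadjusted p of 0.0158, 0.0198 and 0.0146.

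The name mbd101, for a methyl-CpG-binding domain protein, belongs to 2 gene models with differences in opposite directions. GRMZM5G847045 on chromosome 1 had 4.48, 3.89 and 2.73 CPM in controls and 26.6 and 8.96 under UV-B. GRMZM2G040131 on chromosome 8 had 44.3, 39.1 and 32.3 CPM in controls and 9.43 and 28.1 under UV-B. UV-B replicate 2 was thus the higher library of one and the lower of the other. All reads of both models were unique in these 5 libraries, and the annotation pairs both with 1 RefSeq record on chromosome 8, so the name of the chromosome 1 model is uncertain.

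Oxylipins, which include jasmonate, are made from fatty acids by lipoxygenases and then allene oxide synthases and cyclases. lox5 (GRMZM2G102760), a lipoxygenase gene, had 139, 155 and 116 CPM in controls and 255 and 221 under UV-B. Both UV-B libraries were above all controls (log2 fold change 0.76 ± 0.22, unadjusted p = 0.00461). Nearly all lox5 reads are shared by transcripts, with 1190 total and 1 unique in UV-B replicate 2. Of 21 oxylipin synthesis genes tested, 3 were higher and 0 lower at an unadjusted p under 0.05, against 1.82% and 1.8% of all genes. Without overlap, 3 lay above all controls, against 7.57% of all genes. The others, lox3 and opr2, had no reads in controls and at most 0.598 and 1.2 CPM under UV-B. In UV-B replicates 2 and 3 these were 2 and 1 reads of lox3 and 1 and 2 reads of opr2. Both tallies therefore rest in part on genes near the floor. The list's median log2 difference from the control mean was 0.48 in UV-B replicate 2 and 0.30 in UV-B replicate 3, and control replicate 1 stood as far from the other controls, at 0.49. With unique reads the list's fitted median was 0.02, against 0.43 with all reads. lox10, another lipoxygenase gene, overlapped, with 206, 95.4 and 104 CPM in controls and 341 and 161 under UV-B.

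Several jasmonate response genes were high in 1 of the UV-B libraries only. TIFY proteins include the JAZ repressors, whose genes are themselves induced by jasmonate. TIFY4 had 2.49, 3.51 and 1.29 CPM in controls, 43.7 in UV-B replicate 2 and 1.79 in UV-B replicate 3. TIFY28 had at most 0.482 CPM in controls, 9.22 in UV-B replicate 2 and 0 in replicate 3. Outside this list, the proteinase inhibitor gene MPI and the ribosome-inactivating protein gene RIP had 21.2 and 55.1 CPM in UV-B replicate 2. They had 0 and 0.598 in replicate 3, and at most 0.195 and 0.389 in controls. MPI is from the defence list, with 18 genes tested, 3 higher and 1 lower at an unadjusted p under 0.05, and a median log2 fold change of -0.15. The higher ones beside MPI, chiA and cpi2, had 0 and 20.8 CPM in UV-B replicate 2 and 5.98 and 74.7 in replicate 3. Control means were 0.0649 and 22.7. The lower one, WRKY1, had 6.48, 2.73 and 4.34 CPM in controls and 1.93 and 2.39 under UV-B. Of 18 jasmonate response genes tested, 3 were higher and 0 lower at an unadjusted p under 0.05, against 1.82% and 1.8% of all genes. Only 2 had both UV-B libraries above all controls, against 7.57% of all genes. TIFY1, 1 of these, had 0.321 to 0.584 CPM in controls and 2.14 and 1.2 under UV-B, and TIFY17 had 7.21 to 10.9 and 13.9 and 12.5. The list's median log2 difference from controls was 0.75 in UV-B replicate 2 and -0.06 in replicate 3, and the fitted median was 0.51, or -0.02 without UV-B replicate 2.

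Phenylpropanoid enzymes make precursors of lignin and flavonoids from phenylalanine. PAL1, for phenylalanine ammonia-lyase, the entry enzyme, had 409, 564 and 459 CPM in controls and 636 and 742 under UV-B (log2 fold change 0.46 ± 0.23, unadjusted p = 0.0693). 4CL, for the ligase that activates the product, had 8.97, 22.6 and 14.8 CPM against 22.9 and 28.1. Laccase-17 (GRMZM2G072808), of a family that couples lignin units, had 1.49, 1.75 and 1.29 CPM against 5.57 and 2.39 (unadjusted p = 0.0236). Another laccase gene, lac2, went the other way, with 0, 1.17 and 0.964 CPM against 0.214 and 0 (unadjusted p = 0.0832). In the list, 8 of the 12 genes had a positive log2 fold change, against 45.7% of all genes. Of 12 genes of this list tested, 4 lay above all controls and 0 below, against 7.57% and 7.75% of all genes. At an unadjusted p under 0.05, 1 was higher, against 1.82% of all genes. The median log2 fold change was 0.40, with 0.38 in UV-B replicate 2 and 0.33 in replicate 3, and -0.01 in zone 2. It was 0.08 with unique reads, of which PAL1 had 5 among 2966 total in UV-B replicate 2. Single controls stood -0.58, 0.31 and 0.07 from the mean of the other controls.

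Flavonoids absorb UV-B and are made from the same precursors. Of 16 listed flavonoid and anthocyanin genes, 8 had enough reads to be tested. Of these, 0 were past an unadjusted p of 0.05, against 3.62% of all genes. Also 0 were free of overlap, against 7.57% (higher) and 7.75% (lower) of all genes. With 8 genes, counts of 0 are near these shares. BZ1, which adds glucose to anthocyanidins, had 52.8, 46.0 and 64.3 CPM in controls and 46.3 and 54.4 under UV-B. c2, for chalcone synthase, the first step, had 2.99, 1.56 and 3.7 CPM against 3.22 and 2.99. CHI, for chalcone isomerase, had 17.9 CPM in UV-B replicate 3 and 3.7 to 7.97 in the other 4. Among light receptors, PHYB, a phytochrome B gene, had 30.4, 32.1 and 38.7 CPM against 29.6 and 42.4. Of 5 light signalling genes tested, 0 were past an unadjusted p of 0.05, against 3.62% of all genes. Among the 12 DNA repair genes tested this count was also 0, against 3.62% of all genes. No gene tested carries the name of UVR8, COP1, HY5 or a photolyase in the annotation used, so these are not analysed here.

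Antioxidant enzymes remove the reactive oxygen that UV radiation can produce. CAT3 (GRMZM2G079348, chromosome 4), a catalase gene, had 65.2, 32.1 and 29.4 CPM in controls and 67.3 and 91.4 under UV-B. UV-B replicate 2 was only just above control replicate 1 (log2 fold change 0.87 ± 0.30, unadjusted p = 0.0126). In zone 2 the groups stood farther apart, at 22.4 ± 0.667 CPM (SD, n = 2) and 54.9 ± 3.18 (n = 3), with a log2 fold change of 1.28 and an unadjusted p of 0.00136. CAT1, another catalase gene, had 164, 123 and 170 CPM against 153 and 166. Of 37 antioxidant enzyme and glutathione transferase genes tested, 2 lay above all controls and 6 below, against 7.57% and 7.75% of all genes. Of the 37, 10 had a positive log2 fold change, against 45.7% of all genes. The list's median log2 fold change was -0.20, or 0.04 without UV-B replicate 3. The lower 6 include gst37 at 1.49, 2.53 and 2.73 CPM against 0.857 and 0.598, and the iron superoxide dismutase gene fsd1 at 170, 159 and 178 CPM against 146 and 124.

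**Figure D3:**
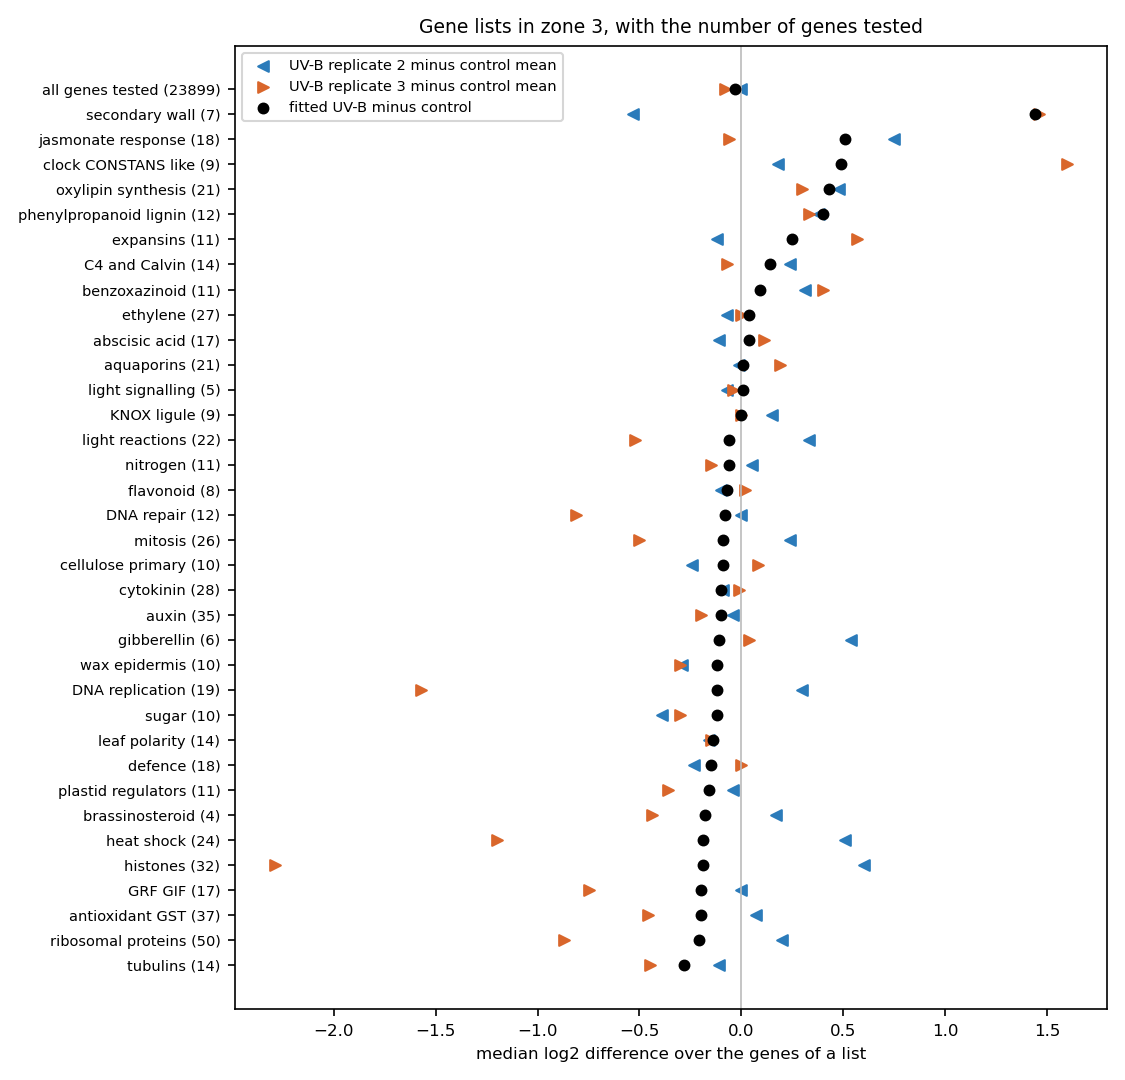
Median log2 difference over the tested genes of each of the 35 gene lists (number in brackets) and over all genes: fitted UV-B minus control (black), UV-B replicate 2 minus the control mean (blue) and UV-B replicate 3 minus the control mean (orange). Histone genes lie at 0.60 in replicate 2 and -2.29 in replicate 3, while phenylpropanoid and lignin genes lie at 0.38 and 0.33.

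Cell division and ribosome genes were low in UV-B replicate 3 and not in UV-B replicate 2. Of 32 histone genes tested, 0 were past an unadjusted p of 0.05, against 3.62% of all genes. The median log2 difference of histone genes from controls was 0.60 in UV-B replicate 2 and -2.29 in replicate 3. The histone gene his2a1 had 630, 864 and 483 CPM in controls, 948 in UV-B replicate 2 and 133 in replicate 3. DNA replication genes had medians of 0.30 and -1.57 and ribosomal protein genes 0.20 and -0.87 in the same libraries. pcna2, the sliding clamp of DNA polymerase, had 69.2, 91.3 and 39.7 CPM in controls and 117 and 23.9 under UV-B. Control replicate 2 stood 0.83, 0.52 and 0.26 above the mean of the other controls in the histone, replication and ribosomal protein lists. The fitted medians were -0.19, -0.12 and -0.21. UV-B replicate 3 is also the shallowest library, and the 7 dividing base markers summed to 47.8 CPM there and to 55.7 to 58.3 in controls; their part was not tested.

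Growth-regulating factors and their GIF coactivators sustain cell division at the leaf base. Of 17 tested, 0 were higher and 2 lower at an unadjusted p under 0.05, against 1.82% and 1.8% of all genes. GIF1 had 0.498, 0.779 and 0.643 CPM in controls and no reads under UV-B, a level too low for a fold. GRF13 had 3.49, 4.28 and 4.98 CPM against 1.29 and 3.59. GRF10, by contrast, had 22.4, 26.1 and 28.3 CPM against 32.6 and 29.3. The auxin synthesis gene Yucca2 had 7.47, 8.96 and 5.3 CPM in controls and 2.36 and 3.59 under UV-B. It was the 1 of 35 auxin genes past an unadjusted p of 0.05 (0.0127), against 3.62% of all genes.

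Gibberellin promotes elongation, and DELLA proteins such as dwarf8 hold growth back until gibberellin removes them. D8 had 79.2, 83.7 and 84.7 CPM in controls and 132 and 96.8 under UV-B (log2 fold change 0.44 ± 0.22, unadjusted p = 0.065). d3, for an enzyme of gibberellin synthesis, had 0.498, 0.779 and 0.964 CPM in controls and 3.0 and 2.99 under UV-B (log2 fold change 1.86 ± 0.63, unadjusted p = 0.0118). Both genes were above all controls in both UV-B libraries, as 2 of the 6 gibberellin genes tested, against 7.57% of all genes. Only these 2 of the 6 had a positive log2 fold change, and the list's median was -0.11. d3 had few reads, 1, 4 and 6 in controls and 14 and 5 under UV-B. In zone 2 the d3 means were 1.04 CPM in controls and 0.847 under UV-B.

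Tubulins form the microtubules that guide cell wall deposition. Of 14 tested, 1 lay above all controls and 5 below, against 7.57% and 7.75% of all genes. At an unadjusted p under 0.05 the count was 0, against 3.62% of all genes. The median log2 fold change of the tubulins was -0.28. TUBB7 had 536, 562 and 615 CPM in controls and 487 and 428 under UV-B, and TUBB3 had 103, 94.3 and 104 against 75.7 and 89.0. Tubulin genes are near copies of each other, so reads can be split between them.

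Secondary walls thicken xylem cells after growth stops, through their own cellulose synthases. All 7 genes of this list had a positive fitted log2 fold change, with a median of 1.44, but UV-B replicate 3 set it. The cellulose synthase gene cesa11 (GRMZM2G055795) had 0.498, 0 and 1.45 CPM in controls, 0.214 in UV-B replicate 2 and 11.4 in replicate 3. bk2, for the wall protein brittle stalk2, had at most 0.964 CPM in controls, 0 in UV-B replicate 2 and 8.37 in replicate 3. Without UV-B replicate 3 the median was -1.21. The same library had the highest level of the wax synthesis gene CER1 (GRMZM2G066578), 122 CPM against 1.29 to 7.23 in the other 4 libraries, and of expa1, an expansin gene, 44.2 against 1.71 to 11.5. Over the 5 xylem and secondary wall markers the summed CPM were 118 to 135 in controls and 119 and 182 in UV-B replicates 2 and 3. Over the 4 epidermis and wax markers they were 675 to 1050 and 691 and 490. Their part in these results was not tested.

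The GIGANTEA genes of the clock list were high in 1 library of each treatment. GI, a GIGANTEA gene that carries clock time to other pathways, had 292, 59.0 and 58.5 CPM in controls and 42.9 and 373 under UV-B. gigz1b, a second one, had 76.2, 1.95 and 2.41 CPM against 1.07 and 105. Control replicate 1 and UV-B replicate 3 were high and the other 3 low in both genes. Benzoxazinoids are defence compounds of grasses. Of 11 benzoxazinoid genes tested, 0 were free of overlap, against 7.57% (higher) and 7.75% (lower) of all genes. Also 0 were past an unadjusted p of 0.05, against 3.62% of all genes. The median of the benzoxazinoid genes stood 1.73 above the other controls in control replicate 1. In UV-B replicates 2 and 3 it stood 0.31 and 0.40 above the control mean. BX1, their first enzyme gene, had 440, 19.5 and 25.2 CPM in controls and 45.7 and 272 under UV-B. The chaperone gene HSP90-2 had the opposite order, with 195, 672 and 560 CPM in controls and 590 and 188 under UV-B. Each of these genes overlapped between the treatments. Collection time of the libraries is not in the labels, and its part was not tested.

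Light reaction genes code for the photosystems and their antennae. Of 22 light reaction genes tested, 0 were past an unadjusted p of 0.05, against 3.62% of all genes. PSBQ1 (GRMZM2G058070), of the oxygen-evolving part of photosystem II, had 266, 228 and 412 CPM in controls and 164 and 149 under UV-B, below all controls (log2 fold change -0.99 ± 0.47, unadjusted p = 0.054). Its zone 2 means were 112 and 61.1 CPM, without overlap. The same name also belongs to GRMZM2G021617, which had 144, 271 and 229 CPM in controls and 292 and 180 under UV-B, with overlap. lhcb6, a light-harvesting gene, had 162, 418 and 572 CPM in controls and 377 and 102 under UV-B. Of 14 C4 and Calvin cycle genes, 0 were higher and 1 lower at an unadjusted p under 0.05, against 1.82% and 1.8% of all genes. The lower one was CA, a carbonic anhydrase gene, with 4.48, 4.09 and 3.38 CPM against 2.14 and 0.598 (unadjusted p = 0.0431). CA had few reads, 9, 21 and 21 in controls and 10 and 1 under UV-B. In zone 2 it went the other way, with means of 5.29 CPM in controls and 7.83 under UV-B.

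Zone 2 is the next segment towards the leaf base. The libraries of these contrasts are separate, but the labels do not say whether zones 2 and 3 of a number came from the same leaves. In the test of the difference, 0 genes passed by edgeR, DESeq2 or limma-voom, with 454 (1.9%), 358 and 270 genes at an unadjusted p under 0.05. At an unadjusted p under 0.05 in both zones there were 78 genes of the same direction, 9.03% of the 864 in zone 3 and 8.31% of the 939 in zone 2 (3.93% of the genes tested there), and 9 of opposite direction. Named genes among the 78 include NAR, CAT3, gst37 and sdh1. In zone 3, sdh1 had 17.4, 13.2 and 10.3 CPM in controls and 21.9 and 28.1 under UV-B. MPI, RIP and TIFY28 are also among the 78. Their groups overlapped in zone 2, and in zone 3 they were high in UV-B replicate 2 alone.

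**Figure D4:**
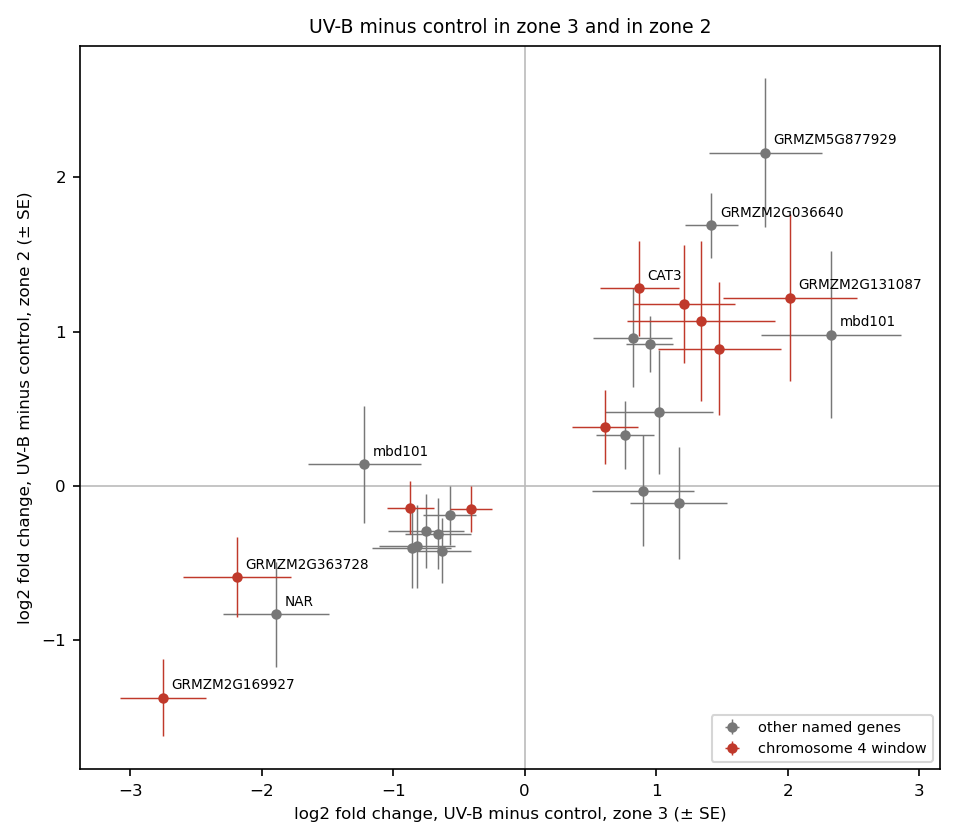
Log2 fold change of UV-B minus control in zone 3 (x) and zone 2 (y), with SE bars from edgeR, for the 10 genes of the chromosome 4 window described below (red) and 17 other genes chosen by zone 3 p or named above (grey), all with group means of at least 1 CPM. The genes were chosen on zone 3 values, and some grey ones by the model over the 3 zones. All 10 red points have the same sign in both zones.

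The share of genes past an unadjusted p of 0.05 differed between windows along the chromosomes, and whether it was uneven was not tested. In 371 windows of 5 Mb with at least 20 tested genes, the median share was 3.45% in zone 3. The highest share, 19%, was in chromosome 4, 240000001 to 245000000, with 12 of 63 genes. This window was picked for that share, which is therefore a description with no test. The 12 genes lie within 1.56 Mb, from 240024408 to 241586205, and include GRMZM2G169927 and CAT3. Of them 7 were higher and 5 lower under UV-B. All 12 were without overlap in zone 3, against 7.57% (higher) and 7.75% (lower) of all genes. They were kept for a low p from the same libraries, so this adds no support.

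In zone 2, 8 of the 63 genes (12.7%) had an unadjusted p under 0.05, against a median of 3.39% over windows. The window ranked 7 of 371 there. Zone 2 differences did not rank the windows, but both zones share 1 estimate of the spread, which enters both sets of p. The zone 2 share is therefore not independent of the choice. With the 5 zone 3 libraries fitted alone, 8 of 53 genes of the window (15.1%) had an unadjusted p under 0.05 in zone 3, against 2.06% of all genes. All 12 zone 3 genes had the same sign in zone 2, against 71.2% of the 864 genes. Of the 12, 8 were without overlap there too. Over all genes this share was 8.43% (UV-B higher) and 4.59% (UV-B lower). It was not computed for the 864 genes, the like set for genes kept for a low zone 3 p. Both zones may come from the same leaves. GRMZM2G363728 had 7.47, 3.89 and 4.5 CPM in zone 3 controls and 1.07 and 1.2 under UV-B, with zone 2 means of 17.1 and 11.5. GRMZM2G131087 had 3.98, 3.89 and 4.18 CPM against 18.0 and 15.5, with zone 2 means of 2.45 and 5.54. GRMZM2G074414 had 1.99, 5.45 and 3.7 CPM against 10.1 and 8.37, with zone 2 means of 5.01 and 11.4. GRMZM2G074015 was below all controls in zone 3 alone, with 66.2, 54.7 and 61.9 CPM against 33.7 and 35.3, and had zone 2 means of 52.9 and 49.0. Of these genes only CAT3 has a name in the annotation used. By the same count, the 255000001 to 260000000 and 260000001 to 265000000 windows of chromosome 1, which hold GRMZM2G039373 and GRMZM2G036640, ranked 8 and 14 with 12.2% and 10.1%. The chromosome 1 windows of GRMZM5G877929 and GRMZM2G445139 ranked 70 and 215, with 5.88% and 3.03%, and the window from 265000001 to 270000000 ranked 237 with 2.63%. No genotypes were analysed here. For GRMZM2G169927, CAT3 and the other genes of these windows, a response to UV-B and a local sequence difference between the plants of the groups cannot be told apart.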

How the data were processed

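The members and gene lists were chosen with earlier results of these data known. Per the file headers, the authors deposited 2 counts for each transcript, of all its reads and of those assigned to it alone (unique). How reads were aligned, and to which genome build, is not given in the sources used here. Coordinates are those of the deposited table. Its 21 value columns of 3 libraries that match no sample were not used. Total counts of 62892 transcripts were summed to 39145 genes. RefSeq (Zm-B73-REFERENCE-NAM-5.0) gave names only: 18842 genes matched and 2760 had a name. Symbols filled 35 gene lists with 735 genes, beside 5 marker lists. Near-identical genes (histones, tubulins, ribosomal proteins, benzoxazinoid genes) can share reads. The kit is stranded per the labels' protocols, but the strand setting of the counting is not given, so overlapping genes are uncertain.

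The test was that of edgeR 4.0.16, run in R 4.3.3 (filterByExpr over 6 groups, TMM scaling, two-sided quasi-likelihood F test, Benjamini-Hochberg adjustment over all 23899 genes, threshold 0.05) on 14 libraries in 6 groups, which share 1 estimate of the spread. SE came from the F statistic. CPM carry no TMM scaling. Differences from controls by library use log2 CPM with TMM scaling and a prior count of 2. Lists got counts and medians, with no test. The scripts were tested on simulated data.

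Named genes were those past the adjusted threshold, up to 8 higher and 8 lower named genes by unadjusted p with at least 10 CPM and no overlap, up to 3 genes a list by p and 2 by level, and 4 by the model over zones. TIFY17, 4CL, c2, CAT1, TUBB3, fsd1, bk2 and BX1 are members of lists chosen for the text after their values were seen, and so were the genes of the chromosome 4 window. Alternatives were DESeq2 1.42.0, limma-voom (limma 3.58.1), also with libraries of 1 number correlated, other scalings, filters and thresholds, unique reads, thinning to 1673416 reads, all 15 libraries, zone 3 libraries alone, a replicate block, and leaving out libraries.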

Additional observations from a re-analysis of the deposited data

How the results depend on the processing

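The count of genes past the adjusted threshold in zone 3 was 1 and did not exceed 4 under any alternative. It was 1 with all 15 libraries, DESeq2 size factors, no filter, a filter of 1 CPM in 2 libraries, and an adjusted p under 0.1. It was 0 with the 5 zone 3 libraries alone, limma-voom, limma-voom with a correlation of libraries of the same treatment and replicate number (0.468), library totals only, unique reads, thinned libraries, and without control replicate 1 and UV-B replicate 3 together. DESeq2 gave 4. Leaving out 1 library gave 0 to 1. Fewer reads or libraries by construction hold for unique reads, thinning, the smaller fits and the left-out libraries; for the others the cause was not tested. The test of zone 3 against zone 2 gave 0 genes under every alternative run.

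Replicate numbers are those of the labels, but titles carry other numbers (3, 4 and 7 in controls, 7, 8 and 9 under UV-B), so a number need not tie the treatments. Libraries of the 2 treatments with the same replicate number did not deviate together throughout: the correlation of their deviations was 0.554 and 0.02 in zone 3 and -0.029 and 0.429 in zone 2. For the title number 7, which both treatments share, it was -0.56 in zone 2. With the replicate number as a block 1 gene was called in zone 3 and 0 for the difference between zones.

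Of 3218 gene values under alternatives, 2935 kept their sign. Of 360 list medians, 56 moved by more than the spread of the controls and 64 had the other sign. The chromosome 4 window held 4 genes past an unadjusted p of 0.05 after thinning and 7 to 13 under the other alternatives, a count chosen after seeing the data. The 13 came without UV-B replicate 2, when 11.4% of all genes passed too. Genes without reads in a group were also set to a bound of 3 reads over that group, which moved list medians by at most 0.16. UV-B replicate 3, with 1673416 reads, limits low genes most: 1 read there is 0.598 CPM.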
